A study of Bos taurus with 6 samples.

Results

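The genes described here encode proteases that act outside cells or at their surface, and the inhibitors that restrain them, in day 7 bovine (Bos taurus) blastocysts that were produced in vitro. The list held 7 symbols, MMP12, PLAU, SLPI, PRSS8, TIMP1, TIMP2 and MMP14, matched to the 12826 genes of the count table. Of these, 5 were found and all 5 passed the filter on low counts, among 12732 tested genes. TIMP1 and MMP14 were not analysed here. MMP12, PLAU and SLPI were selected on their differences between treated and control blastocysts in these same libraries, so their values in that comparison are given as a description, with no test.

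The study compared 3 libraries of embryos given the ketone body beta-hydroxybutyrate (BHB) with 3 control libraries of embryos without it. Each library came from a pool of slaughterhouse-derived embryos, with no genotype or strain named, and its RNA was read after polyA selection. How much BHB was given, for how long, and how many embryos made up a pool is not stated in the labels. The labels do not name separate cultures or batches for the 3 libraries of a group, and p-values therefore measure only the spread between these libraries, which may be technical.

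Proteolysis outside the cell works as a balance of activation and inhibition. Matrix metalloproteinases are zinc enzymes that are made as inactive precursors and cut extracellular matrix proteins, and tissue inhibitors of metalloproteinases (TIMPs) bind their active sites. Urokinase, the product of PLAU, turns plasminogen into plasmin and is held at the cell surface by its receptor PLAUR. Epithelial sheets such as the trophectoderm, the outer layer of the blastocyst, carry membrane-anchored serine proteases such as prostasin and matriptase, which the Kunitz inhibitors SPINT1 and SPINT2 restrain. Ruminant embryos elongate before they attach, and secreted proteases and their inhibitors are a known part of the exchange between trophoblast and uterus.

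Total counts ran from 6440732 to 8176648 per library. The 5 genes together were well covered, with totals over the 6 libraries of 31890 counts for PLAU, 6720 for PRSS8, 5439 for MMP12, 1850 for SLPI and 994 for TIMP2. The smallest single value was 86 counts, for TIMP2 in control library 2, with a 95% exact Poisson interval of 68.8 to 106 counts. Such intervals cover counting error only. Trophectoderm markers summed to 13131 to 19948 CPM (counts scaled to a fixed library total) in control and 10183 to 17153 CPM in BHB libraries, with all 14 of 14 markers in the table. Epiblast or inner cell mass markers, with 8 of 10 in the table, summed to 516 to 548 CPM in control and 459 to 557 CPM in BHB libraries, and primitive endoderm markers, with 7 of 10, to 261 to 375 CPM and 307 to 381 CPM. The epiblast sum was mostly POU5F1 and does not show members of opposite sign. NANOG and KLF17 were named after their values were seen. For NANOG the log2 fold change was -0.84 (SE 0.21), and for KLF17 it was 0.72 (SE 0.22). Groups did not overlap in these 2 of the 8 tested epiblast markers, and in 7.84% of all tested genes. Within pairs DESeq2's Wald test, which called 0.339% of genes, called NANOG (adjusted p = 0.0089) and not KLF17 (adjusted p = 0.374). The edgeR test with the pair as a block called neither, with adjusted p = 0.183 for NANOG. In pooled whole embryos, fewer cells of a type and less RNA per cell cannot be told apart.

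MMP12 encodes macrophage metalloelastase, a metalloproteinase that degrades elastin and other matrix proteins. Its level was 73.2, 74.0 and 111 CPM in control libraries 1 to 3 and 150.2, 155 and 169 CPM in BHB libraries 1 to 3. The groups did not overlap: the highest control, library 3, lay below the lowest BHB library, and the BHB libraries differed less among themselves than the controls did. The means were 85.9 ± 21.4 CPM (SD, n = 3) and 158 ± 9.98 CPM (SD, n = 3), a 1.84-fold difference, or 0.88 on the log2 scale (standard error, SE, 0.18).

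The name of MMP12 comes from macrophages, so leukocyte markers were read beside it. Of 12 such markers, CD68 alone was in the count table, at 1.33 to 2.27 CPM in control and 2.42 to 2.77 CPM in BHB libraries. These levels rest on few reads, with 17, 10 and 18 counts in control and 18, 20 and 18 in BHB libraries 1 to 3. The CPM ranges did not overlap, as in 7.84% of all tested genes, and the log2 fold change was 0.45 (SE 0.41). The other 11 were not analysed here. Whether leukocyte RNA had a part in the MMP12 values was not tested. Markers of cumulus and granulosa cells, with 3 of 12 in the table, summed to 29.6 to 37.5 CPM in control and 28.2 to 35.3 CPM in BHB libraries.

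PLAU was lower with BHB. Its level was 976, 1073 and 569 CPM in control libraries 1 to 3 and 551, 644 and 423 CPM in BHB libraries 1 to 3. Control libraries 1 and 2 were high and stood apart, while control library 3 lay between BHB libraries 1 and 2, so the groups overlapped. The means were 873 ± 267 CPM (SD, n = 3) and 539 ± 111 CPM (SD, n = 3), with a log2 fold change of -0.69 (SE 0.24), which is 1.62-fold lower with BHB.

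PRSS8 encodes prostasin, a serine protease anchored in the apical membrane of epithelia. Its level was 206, 185 and 121 CPM in control libraries 1 to 3 and 198, 120.2 and 61.1 CPM in BHB libraries 1 to 3. The groups overlapped, with BHB library 1 between the 2 higher controls and BHB library 3 alone far below all others. The means were 171 ± 44.2 CPM (SD, n = 3) in control and 126 ± 68.5 CPM (SD, n = 3) in BHB libraries, with a log2 fold change of -0.43 (SE 0.37). This value moved to -0.10 without BHB library 3, to -0.91 without BHB library 1 and to -0.27 without control library 1. The RefSeq annotation of assembly ARS-UCD2.0 places PRSS8 over part of the acetyltransferase gene KAT8 and a long noncoding RNA. The labels do not give the strand setting of the counting, so reads of overlapping genes may not be told apart. KAT8 had a log2 fold change of 0.13 (SE 0.17), with 40.0 to 53.6 CPM in control and 45.8 to 53.9 CPM in BHB libraries.

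SLPI encodes secretory leukocyte peptidase inhibitor, a small protein of epithelial secretions that blocks neutrophil elastase and related serine proteases. Its level was 39.7, 15.5 and 30.3 CPM in control libraries 1 to 3 and 72.1, 45.8 and 45.5 CPM in BHB libraries 1 to 3. All BHB libraries lay above all controls, by a small margin between BHB library 3 and control library 1, and control library 2 was the lowest of the set. The means were 28.5 ± 12.2 CPM (SD, n = 3) and 54.5 ± 15.2 CPM (SD, n = 3), a 1.91-fold difference, or 0.93 on the log2 scale (SE 0.33). The next gene after SLPI in the same annotation, LOC783797, is a pseudogene whose parent gene is not named there. It had a log2 fold change of -0.15 (SE 0.52).

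TIMP2 encodes an inhibitor of metalloproteinases that also takes part in the activation of MMP2 at the cell surface. Its level was 19.1, 11.4 and 37.2 CPM in control libraries 1 to 3 and 28.6, 16.8 and 16.8 CPM in BHB libraries 1 to 3. Control libraries held both the lowest and the highest value, so the BHB libraries lay within the range of the controls. The means were 22.6 ± 13.3 CPM (SD, n = 3) and 20.7 ± 6.81 CPM (SD, n = 3), with a log2 fold change of -0.13 (SE 0.40). This value turned to 0.44 (SE 0.33) without control library 3. In the ARS-UCD2.0 annotation TIMP2 overlaps CEP295NL, which was not analysed here.

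**Figure D1:**
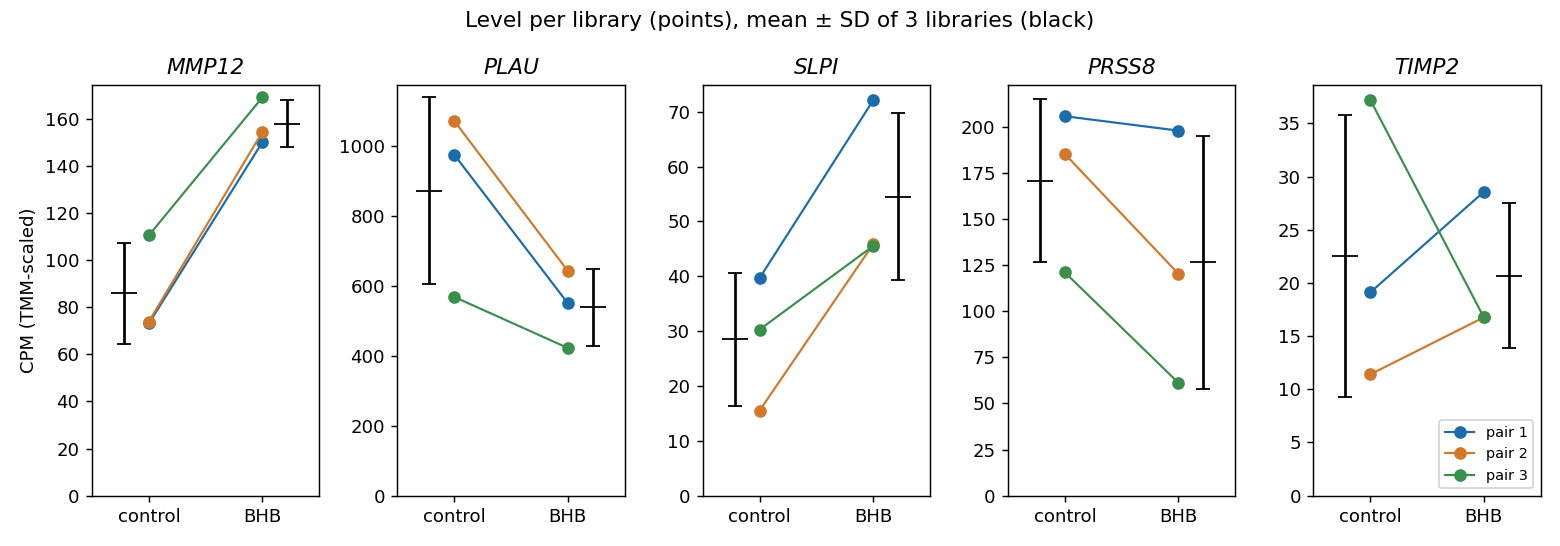
Level of each gene in CPM on TMM-scaled library sizes, in control and BHB libraries, with lines joining the libraries of a pair and black bars for the mean ± SD of 3 libraries. MMP12 and SLPI show no overlap between groups, PLAU and PRSS8 overlap, and TIMP2 in control library 3 stands at 37.2 CPM above all others.

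Over all genes, groups of 3 control and 3 BHB libraries did not overlap in 7.84% of the 12732 tested genes, and the same was true of 2 of the 5 genes here, MMP12 and SLPI. In the comparison of BHB with control over all libraries, edgeR's quasi-likelihood test with Benjamini-Hochberg adjustment called 0% of tested genes and thus 0 of the 5. At an unadjusted p under 0.05 that test had 347 genes, and DESeq2's Wald test called 6 after adjustment. Since 3 of the 5 genes were chosen on this contrast, nothing is read from these counts.

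The libraries can also be compared within pairs. The labels name no pairs. A likelihood ratio test in DESeq2, with pair and treatment in the full model and neither in the reduced one, gave back the p-values of the authors' deposited table within 1e-06 in 99.98% of genes when libraries of the same number were paired, and in 0.398% of genes or fewer for the other 5 pairings. Within these pairs, DESeq2's Wald test called 0.339% of genes with an adjusted p, and 3 of the 5 genes here: MMP12 and SLPI as higher and PLAU as lower with BHB. The edgeR test with the pair as a block called 0 genes, with 1044 at an unadjusted p under 0.05. These calls rest on the contrast that chose the members and are listed without weight.

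MMP12 was higher in the BHB library of each pair, by 1.03, 1.06 and 0.61 on the log2 CPM scale in pairs 1 to 3. SLPI was likewise higher in each pair, by 0.86, 1.55 and 0.58. Both genes had their smallest difference in pair 3 and their largest in pair 2. PLAU had log2 differences of -0.82, -0.74 and -0.43 in pairs 1 to 3, again smallest in pair 3. PRSS8 ran the other way along the pairs, with -0.06 in pair 1, -0.62 in pair 2 and -0.98 in pair 3. TIMP2 had opposite signs, 0.57 and 0.54 in pairs 1 and 2 against -1.14 in pair 3. One direction in 3 of 3 pairs was seen in 30.3% of all tested genes and in 4 of the 5 genes here. Of these 4, MMP12, PLAU and SLPI were selected on this contrast, and PRSS8 was near 0 in pair 1 (-0.06). Nothing is therefore read from that count. Each pair holds a single library per group, so a difference between pairs in the response to BHB was not tested.

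**Figure D2:**
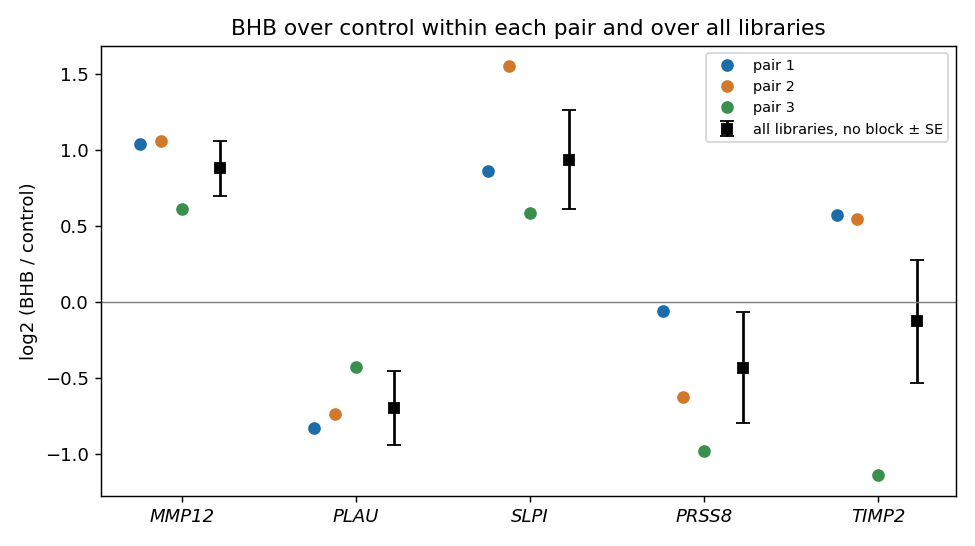
Log2 ratio of the BHB to the control library in each of the 3 pairs (coloured points) and the log2 fold change over all libraries without a block, with its SE (black squares). MMP12 and SLPI lie above 0 and PLAU below 0 in every pair, PRSS8 is near 0 in pair 1 alone (-0.06), and TIMP2 changes sign in pair 3 (-1.14).

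Differences between pairs were tested in a model with pair and treatment. The members were chosen with results of these libraries known, and the deposited p-values reflect pair and treatment together, so the pair values of the members are not shown to be independent of their selection and describe these libraries. Both PLAU and PRSS8 were called between pairs (edgeR's quasi-likelihood test, adjusted p = 0.0231 for PLAU and 0.0214 for PRSS8), where 4.12% of all tested genes were. PRSS8 fell from a mean of 7.66 log2 CPM in pair 1 to 7.22 in pair 2 and 6.43 in pair 3, a range that 7.49% of tested genes exceeded. PLAU was at 9.52 and 9.70 log2 CPM in pairs 1 and 2 and at 8.94 in pair 3. Neither gene passed without pair 3 (adjusted p = 0.501 for PLAU and 0.194 for PRSS8). Scaling by library size alone left PRSS8 just short of the threshold (adjusted p = 0.0524).

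SLPI was highest in pair 1, with means of 5.75, 4.75 and 5.23 log2 CPM in pairs 1 to 3, and did not pass the test between pairs in edgeR (adjusted p = 0.0884). It passed DESeq2's likelihood ratio test (adjusted p = 0.0481), which called 5.48% of genes and PLAU and PRSS8 as well, and edgeR's test without pair 3 (adjusted p = 0.0234). MMP12 and TIMP2 did not pass, with adjusted p = 0.248 and 0.298. Of the variance of MMP12 in log2 CPM, pair took 12.4% and treatment 83.3%, against medians of 53.5% and 10.8% over all tested genes. For PRSS8 the order was reversed, with 69.6% for pair and 20.6% for treatment, and for PLAU the shares were close, at 47.3% and 49.4%. With 3 pairs and 6 libraries these shares are descriptions, and the treatment shares of the selected genes were fixed in part by their selection.

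The level of trophectoderm markers moved with the pairs as well. Their summed level in pairs 1, 2 and 3 was 19948, 18978 and 13131 CPM in control and 17153, 15137 and 10183 CPM in BHB libraries, so that it was lowest in pair 3 and lower with BHB in every pair, as PRSS8 and PLAU were. The keratins KRT8 and KRT18 of that epithelium made up most of the sum, and the other markers did not all follow it. Of 13 tested markers, 5 were lower and 3 higher with BHB in every pair. The higher ones were the transcription factor genes TFAP2C (log2 differences of 0.46, 0.64 and 0.10 in pairs 1 to 3), TEAD4 (0.28, 0.17 and 0.19) and CDX2 (0.51, 0.20 and 0.09), and TFAP2C had its highest level in pair 3. KRT8 was at 12283, 11329 and 7369 CPM in control libraries 1 to 3 and at 9804, 8217 and 5706 CPM in BHB libraries 1 to 3. Of the 13, 10 were lower in pair 3 than in pair 1, against 49.1% of all genes. A fall from pair 1 to 2 and on to 3, the order of PRSS8, was seen in 4 of the 13, against 19.3% of all genes. Between pairs edgeR called 4, KRT8, KRT18, KRT19 and DAB2, against 4.12% of all genes. Of these, KRT19 and DAB2 were highest in pair 2, and KRT19 was higher in pair 3 (7.70 log2 CPM) than in pair 1 (7.47). The part of trophectoderm content in the levels of PRSS8 and PLAU was not tested.

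**Figure D3:**
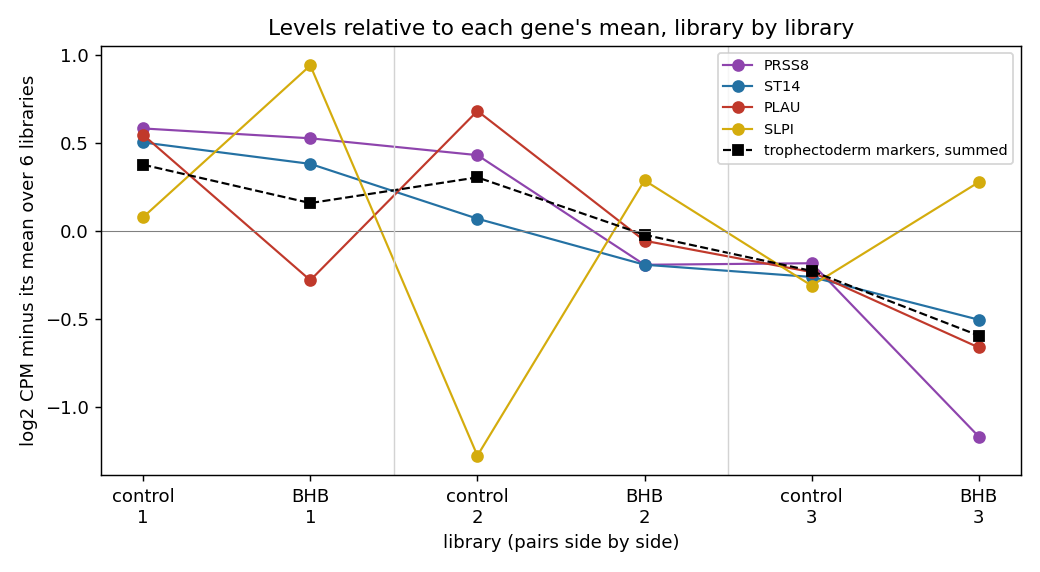
Log2 CPM of PRSS8, ST14, PLAU and SLPI and of the summed trophectoderm markers, each minus its own mean over the 6 libraries, with the libraries of a pair side by side. PRSS8, ST14 and the marker sum step down from pair 1 to pair 3, PLAU drops with BHB inside pairs and again in pair 3, and SLPI runs up with BHB inside each pair.

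The wider protease system was read from 9 lists of genes, with 162 genes in all, of which 77 were tested. Without the members, 72 were tested, and 49 of these had a negative and 23 a positive log2 fold change with BHB. Their median was -0.18, against -0.005 over all genes, of which 49.1% were positive. The lists were chosen with earlier results of these data known. Nothing is therefore read from this difference, or from the signs and medians of single lists below. None of the 72 was called in either fit of BHB against control, where edgeR without a block called 0% of genes and DESeq2 within pairs 0.339%. Between pairs, edgeR called 8 of the 72, against 4.12% of all genes, and DESeq2's likelihood ratio test called 14, against 5.48%.

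Among matrix metalloproteinases, 6 of 22 were tested, with 3 positive and 3 negative. MMP12 was the 1 member called, within pairs and by selection. Its neighbours MMP13, MMP3 and MMP1 in the gene cluster of the ARS-UCD2.0 annotation were not analysed here. The ADAM and ADAMTS proteases, which shed surface proteins and cut matrix proteoglycans, had 8 of 11 tested members negative and none called with BHB. ADAM19 was at 72.3, 77.3 and 34.6 CPM in control libraries 1 to 3 and at 55.8, 33.1 and 26.1 CPM in BHB libraries 1 to 3, and differed between pairs (edgeR, adjusted p = 0.0499). ADAMTS7 was at 3.80 ± 0.996 CPM (SD, n = 3) in control and 6.18 ± 1.69 CPM (SD, n = 3) in BHB libraries and did not pass.

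Metalloproteinase inhibitors had 4 of 10 genes tested and none called with BHB. The list held TIMP2, the broad protease trap A2M at 113 ± 61.2 CPM (SD, n = 3) in control and 123 ± 13.97 CPM (SD, n = 3) in BHB libraries, and SPOCK1, a secreted proteoglycan. SPOCK1 differed between pairs (edgeR, adjusted p = 0.0169), with 17.4 and 22.1 CPM in the control and BHB libraries of pair 1 and 3.76 to 8.75 CPM in the other 4. RECK, a membrane-anchored inhibitor named here for its role after its values were seen, had a log2 fold change of 0.07 (SE 0.27).

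The plasminogen activation list had 8 of 10 tested members negative, with a median of -0.43, and PLAU was the 1 member called, within pairs and by selection. The median includes PLAU. The next genes were named for their known link to urokinase after their values were seen, and none was called with BHB. PLAT, the second plasminogen activator, was at 5.74, 4.64 and 23.1 CPM in control libraries 1 to 3 and 0.943, 8.45 and 3.94 CPM in BHB libraries 1 to 3, with control library 3 above all others and the other 5 libraries overlapping. The receptor gene PLAUR was scarce, at 1.46 to 3.87 CPM in control and 0.808 to 3.05 CPM in BHB libraries. SERPINE2, which encodes a serpin that can block both activators, had a log2 fold change of 0.14 (SE 0.13).

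The annexin gene ANXA2 and its partner S100A10, which together form a plasminogen-binding complex at the cell surface, differed between pairs (edgeR, adjusted p = 0.0066 and 0.0317). S100A10 was named for its link to ANXA2 after its values were seen. ANXA2 was at 5055, 3492 and 2542 CPM in control libraries 1 to 3 and at 4198, 2770.0 and 2439 CPM in BHB libraries 1 to 3. It thus stepped down from pair 1 to pair 3 in both groups, the order that PRSS8 had. S100A10 was at 1544, 1266 and 876 CPM in control and 1010.1, 987 and 719 CPM in BHB libraries 1 to 3, in the same order. Pair means fell in this order in 19.3% of all tested genes.

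Membrane-anchored and secreted serine proteases had 9 of 13 tested members negative and none called with BHB. ST14 encodes matriptase, which acts in a cascade with prostasin, and was named for that link after its values were seen. It was at 54.2, 40.2 and 31.9 CPM in control libraries 1 to 3 and at 49.8, 33.5 and 27.0 CPM in BHB libraries 1 to 3. Like PRSS8 it stepped down along the pairs, an order that the pair means of 19.3% of all tested genes had. It lay at the threshold between pairs, with adjusted p = 0.0521 in edgeR and 0.0486 in DESeq2's likelihood ratio test. Its log2 fold change with BHB was -0.19 (SE 0.27). GZMB, a granzyme, and KLK6, a kallikrein, had the smallest p between pairs in this list (edgeR, adjusted p = 0.00081 and 0.0041). GZMB reached 18.1 and 27.0 CPM in the 2 libraries of pair 3 and at most 1.46 CPM in the other 4, while KLK6 was at 2.27 and 2.69 CPM in pair 1 and 14.5 to 38.1 CPM in the others. CORIN, which encodes a protease that processes natriuretic peptides, was at 2.72 ± 0.283 CPM (SD, n = 3) in control and 1.31 ± 0.416 CPM (SD, n = 3) in BHB libraries and did not pass. TMPRSS4, with a log2 fold change of -0.69 (SE 0.38), did not pass either.

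Inhibitors of the WAP, Kunitz and Kazal families had 6 of 10 tested members negative, and SLPI was the 1 member called, within pairs and by selection. Its log2 fold change of 0.93 lay above those of the other 9 members, which ran from -0.33 to 0.19. Since SLPI was selected on this contrast, nothing is read from that distance. SPINT1 and SPINT2, the inhibitors of matriptase and prostasin, were named for that role after their values were seen. SPINT2 was at 251 ± 60.2 CPM (SD, n = 3) in control and 273 ± 23.1 CPM (SD, n = 3) in BHB libraries, and SPINT1 at 29.0 ± 4.95 and 25.9 ± 5.14 CPM (SD, n = 3). Neither was called with BHB, or between pairs by edgeR or DESeq2. APP, the amyloid precursor gene with a Kunitz domain in some isoforms, differed between pairs (edgeR, adjusted p = 0.0287) and was highest in pair 1, with 45.3 and 42.7 CPM.

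Of the serpins, 6 of 10 tested members were negative, and none was called with BHB. Between pairs edgeR called none, while DESeq2's likelihood ratio test called SERPINB5 (adjusted p = 0.0049) and SERPINA3 (adjusted p = 0.0283), both named after their values were seen. The SERPINA3 call rests on few reads, with 1, 41 and 13 counts in control and 0, 7 and 22 in BHB libraries 1 to 3. SERPINI1, which encodes neuroserpin, was at 6.43 ± 0.536 CPM (SD, n = 3) in control and 9.42 ± 2.05 CPM (SD, n = 3) in BHB libraries, and SERPINB6 at 59.6 ± 4.28 and 69.1 ± 14.9 CPM (SD, n = 3). Cystatins, which inhibit cysteine proteases, had 3 of 4 tested members negative. CST6 was at 3.66 ± 0.879 CPM (SD, n = 3) in control and 1.64 ± 0.609 CPM (SD, n = 3) in BHB libraries, and CST3 at 41.8 to 78.9 and 42.7 to 44.3 CPM. None of these 4 genes passed.

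Proprotein convertases, which activate precursors of metalloproteinases, and cofactors of these enzymes had 8 of 9 tested members negative, with a median of -0.33, and none was called with BHB. CAV1, which encodes the membrane scaffold caveolin, was at 16.03, 8.35 and 12.8 CPM in control libraries 1 to 3 and at 4.71, 6.65 and 4.08 CPM in BHB libraries 1 to 3. Its groups did not overlap, as in 7.84% of all tested genes, and it was the 1 such gene of the 9. Its log2 fold change of -1.26 (SE 0.33) did not pass. PCSK5, a convertase, had a log2 fold change of -0.42 (SE 0.23). The tetraspanin gene CD151 differed between pairs (edgeR, adjusted p = 0.011). It stepped down from 244 to 176 and 110 CPM in control libraries 1 to 3 and from 189 to 121 and 102 CPM in BHB libraries 1 to 3. Pair means in falling order were seen in 19.3% of all tested genes.

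**Figure D4:**
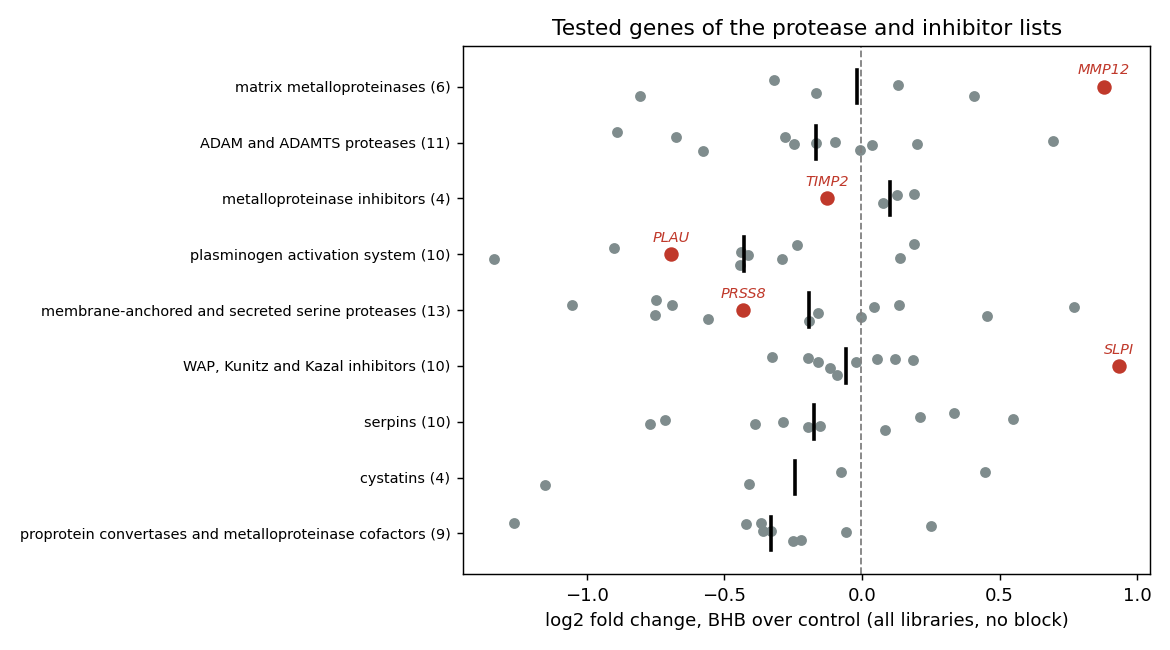
Log2 fold change of BHB over control for each tested gene of the 9 lists (points), with the members in red, each list's median as a black bar and the median of all genes as a dashed line. The number of tested genes stands beside each list. MMP12 (0.88) and SLPI (0.93) lie at the upper end of their lists, and PLAU (-0.69) in the lower part of its list. These genes were selected on this contrast.

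Some genes followed the members closely over the 6 libraries. Likeness was measured as Pearson's r of log2 CPM against 10926 other genes, and the same libraries, pairs and groups underlie all points, so r is a description. The genes most like MMP12 were QTRT2 (r = 0.998), C8H9orf3, AZI2, ZNF711 and U2AF2 (r = 0.985). For PLAU they were ZNF177 (r = 0.994), MAGT1, TMEM86A, ALAS1 and ERP44 (r = 0.986), and for SLPI WIZ (r = 0.993), BCAS4, DHRSX, KCNE3 and SAC3D1 (r = 0.981). None of these 15 genes encodes a member of the 9 lists. Each of the 15 had a smaller log2 fold change than the gene it followed. Among those most like PLAU the log2 fold changes ran from -0.43 to -0.23, against -0.69 for PLAU itself, while ZNF711 (0.81) came near MMP12 (0.88) and KCNE3 (0.89) near SLPI (0.93).

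In the authors' deposited table, the log2 fold change of PRSS8 was -0.55 with the sign turned to BHB over control, and its adjusted p was 2.82e-06. By the refit above, that p-value belongs to a test of pair and treatment together. In the fit that tests treatment alone within pairs, PRSS8 was not among the called genes, whereas it was called between pairs. TIMP2 had an adjusted p of 0.542 in the authors' deposited table.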

How the data were processed

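The deposited table holds whole-number counts per gene, not normalized. The submitters' processing notes name STAR, featureCounts and DESeq2. The genome build, annotation, tool versions, strand setting and handling of multi-mapping reads are not stated in the labels. The authors' deposited results table gives, for each gene, the mean signal of all libraries in size-factor scaled counts, the log2 fold change with its error, the test statistic as a score, and p-values. Samples were grouped by the treatment in their labels and numbered in order of deposit. No row lacks a gene name.

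Counts were scaled by TMM and filtered with filterByExpr, which removed 94 of 12826 genes. All tests were fitted across all genes with Benjamini-Hochberg adjustment at 0.05 (R 4.3.3, edgeR 4.0.16 quasi-likelihood F test, DESeq2 1.42.0 as alternative), after tests on simulated data. DESeq2 gave 10339 genes an adjusted p. Log2 CPM for pair differences and likeness used a prior count of 2. No transcript lengths were used, so levels are not compared between genes.

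The members and lists were chosen with earlier results of these data known. The naming rule takes the members, called genes of each list or else the 2 with the smallest p, up to 2 called between pairs, and the 5 genes most like MMP12, PLAU and SLPI (symbol, mean log2 CPM of at least 1). One list gene, MMP23B, was matched by its older symbol to MMP23. One gene of a list is not reported here by name.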

Additional observations from a re-analysis of the deposited data

How the results depend on the processing

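Without a block, 0 genes were called between BHB and control by edgeR, also under scaling by library size alone, with no filter on low counts and with the replicate block in edgeR. DESeq2 called 6 without and 35 with the replicate block. Leaving out 1 library in the edgeR fit without a block gave 0 to 1. In place of the 35 calls within pairs, DESeq2 called 13 genes without pair 1, 12 without pair 2 and 15 without pair 3. Of these, 7, 6 and 11 were among the 35. MMP12 was called without pair 1 or 3, and PLAU and SLPI without pair 3. PRSS8, which was not among the 35, was called without pair 1, and no member was called without pair 2. The replicate block in edgeR called 0. The 524 genes called between pairs became 63 to 737 without 1 pair, the 63 being without pair 1. The cause was not tested. Of 55 alternative values of the members' log2 fold changes, 52 kept their direction within 1 SD. The other 3 were TIMP2 without 1 library, where its values ran from -0.44 to 0.44. The fold changes ran from 0.78 to 1.10 for MMP12, 0.64 to 1.25 for SLPI, -0.93 to -0.52 for PLAU and -0.91 to -0.10 for PRSS8. Leaving out each pair in the test between pairs for single genes was chosen after seeing the data. TIMP2 had the fewest counts of the members, with 86 to 317 per library. The 95% exact Poisson intervals of its control library 2 (68.8 to 106 counts) and control library 3 (283 to 354 counts) did not overlap.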
